A study of Mus musculus with 3 samples.

Results

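The genes described here encode 10 enzymes of glycolysis, namely Hk2, Gpi1, Aldoa, Tpi1, Gapdh, Pgk1, Pgam1, Eno1, Pkm2 and Ldha, out of 22380 protein-coding genes annotated on the mouse genome build mm9. They were taken as a named set, and every ChIRP-seq region that overlapped by at least 1 bp the span of such a gene in the GENCODE M1 annotation was assigned to it. By that rule, 9 of the 2112 regions recovered with the odd probe pool and 2 of the 345 regions recovered with the even pool lay in 5 of the 10 genes. Pkm2 held 4 odd regions, Aldoa held 2 odd regions and 1 even region, Tpi1 held 1 region of each pool, and Ldha and Pgk1 held 1 odd region each. Gapdh, Eno1, Pgam1, Gpi1 and Hk2 held no region in either pool.

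ChIRP-seq recovers chromatin crosslinked to an RNA with biotinylated antisense probes and sequences the DNA that comes down. The RNA was PAM, labelled PAM-1, a nuclear RNA made from a super-enhancer on chromosome 4. The question was which chromatin it contacts in ASCs, or activated satellite cells. Satellite cells are the stem cells of skeletal muscle, and ASCs are such cells after activation. The cells came from hindlimb muscles of Tg:Pax7-nGFP mice, in which Pax7, a satellite cell gene, drives the nuclear GFP used to sort them, and they were grown in culture without any treatment. Both pools used cells of the same genotype, 1% glutaraldehyde for 10 min and 100 pmol of probes, and the age of the mice and the number pooled are not given in the sources used here. Each pool was 1 library, so no value has a replicate error and no comparison between pools was tested. An input library was also made but was not analysed here. The lists carry a score for each region, whose unit is not stated, so scores were compared only within a list. Regions were 254 bp wide in the odd list and 248 bp wide in the even list. The odd scores ran from 4 to 81 with a median of 6, and the even scores from 4 to 68 with a median of 5. The read depth behind the lists is unknown, and intervals on shares are 95% Wilson intervals that cover counting error only.

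Glycolysis breaks glucose down to pyruvate in the cytosol, and lactate dehydrogenase turns pyruvate into lactate. Hk2, Gpi1, Aldoa and Tpi1 act in the early steps that phosphorylate and split the sugar, while Gapdh, Pgk1, Pgam1, Eno1 and Pkm2 act in the later steps that yield ATP and NADH. Messenger RNAs of such abundant enzymes have often been copied back into the mammalian genome, which leaves processed copies that lack introns and resemble the spliced transcript. A short read from such a gene can match its copies as well as the gene.

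The sequences of regions in coding exons are shown because all of the regions in these genes lay on exons. Each is on the strand of the gene, with exon bases in capitals and intron bases in lower case, and untranslated bases were left out. The regions in Pkm2 are chr9:59516683-59516936 on exon 5 and chr9:59525826-59526079 on exon 10, that in Aldoa is chr7:133940830-133941083 on exon 4 of the minus strand, and that in Ldha is the coding end of a region that ran on into the 3′ untranslated region, chr7:54110309-54110508 in mm9.
Pkm2 exon 5: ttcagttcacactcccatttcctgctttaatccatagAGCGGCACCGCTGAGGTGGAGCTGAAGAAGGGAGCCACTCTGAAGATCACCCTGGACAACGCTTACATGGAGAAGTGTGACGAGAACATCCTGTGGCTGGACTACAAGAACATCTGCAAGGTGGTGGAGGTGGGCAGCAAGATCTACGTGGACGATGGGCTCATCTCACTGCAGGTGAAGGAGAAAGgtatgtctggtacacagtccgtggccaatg
Pkm2 exon 10: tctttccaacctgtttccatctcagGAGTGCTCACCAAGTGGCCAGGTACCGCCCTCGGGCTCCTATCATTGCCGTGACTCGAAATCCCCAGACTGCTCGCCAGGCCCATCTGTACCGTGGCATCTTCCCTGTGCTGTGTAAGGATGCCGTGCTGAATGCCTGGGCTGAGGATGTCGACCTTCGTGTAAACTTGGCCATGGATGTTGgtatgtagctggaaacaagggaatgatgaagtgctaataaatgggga
Aldoa exon 4: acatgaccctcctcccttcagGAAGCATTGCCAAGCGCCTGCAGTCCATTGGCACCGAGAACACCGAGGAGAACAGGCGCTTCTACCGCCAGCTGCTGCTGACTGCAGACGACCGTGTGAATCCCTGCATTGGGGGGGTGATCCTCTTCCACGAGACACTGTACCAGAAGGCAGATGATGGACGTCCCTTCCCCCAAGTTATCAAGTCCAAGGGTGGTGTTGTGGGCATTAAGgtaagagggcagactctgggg
Ldha exon 8: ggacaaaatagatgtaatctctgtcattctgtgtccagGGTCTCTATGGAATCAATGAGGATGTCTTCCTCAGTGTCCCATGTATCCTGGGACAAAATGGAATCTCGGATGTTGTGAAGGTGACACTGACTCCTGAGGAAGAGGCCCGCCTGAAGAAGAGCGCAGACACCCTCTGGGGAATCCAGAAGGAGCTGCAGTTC
Each of these regions ran from the exon into the neighbouring intron. The Pkm2 exon 5 region and exon 10 region, and the Aldoa exon 4 region, held the whole exon with intron on both sides.

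The comparison of the regions with the 6 probes to PAM is shown through the probe with the longest match. Probe 5 shared 11 consecutive bases, in capitals, with the Pkm2 region on exon 5, counting both strands.
Probe 5: acaagtaCTTCAGCTCCAtg
The longest match of any probe to a region in these genes ranged from 7 to 11 nt in the odd pool, with a median of 7 nt over 9 regions. Over all 2112 odd regions it ranged from 4 to 13 nt with the same median of 7 nt. Which probes belonged to which pool is not given in the sources used here.

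Regions elsewhere in the genome also matched the spliced transcripts of these enzymes, and 2 pairs are shown with the differing bases in capitals. The upper line is the transcript of the enzyme and the lower line the region, both in the direction of the transcript. The Pkm2 pair compares bases 245 to 498 of its transcript with the odd region chr5:22231576-22231829, and the Tpi1 pair bases 629 to 876 with the even region chr6:127133473-127133720.
Pkm2 transcript: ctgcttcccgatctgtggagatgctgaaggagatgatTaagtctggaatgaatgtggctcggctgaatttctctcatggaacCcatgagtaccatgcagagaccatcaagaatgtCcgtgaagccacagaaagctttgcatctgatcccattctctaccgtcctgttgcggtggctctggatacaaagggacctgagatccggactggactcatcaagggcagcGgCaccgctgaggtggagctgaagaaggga
Pkm2 copy: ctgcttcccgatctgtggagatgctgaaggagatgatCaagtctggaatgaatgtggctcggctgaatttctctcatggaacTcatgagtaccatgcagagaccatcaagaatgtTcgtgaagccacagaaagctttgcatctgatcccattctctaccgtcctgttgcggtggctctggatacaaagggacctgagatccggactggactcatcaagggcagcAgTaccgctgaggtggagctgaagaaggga
Tpi1 transcript: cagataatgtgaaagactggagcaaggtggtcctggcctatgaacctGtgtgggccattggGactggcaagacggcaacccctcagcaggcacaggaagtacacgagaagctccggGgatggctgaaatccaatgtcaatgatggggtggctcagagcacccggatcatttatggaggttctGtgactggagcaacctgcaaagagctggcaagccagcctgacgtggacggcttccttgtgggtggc
Tpi1 copy: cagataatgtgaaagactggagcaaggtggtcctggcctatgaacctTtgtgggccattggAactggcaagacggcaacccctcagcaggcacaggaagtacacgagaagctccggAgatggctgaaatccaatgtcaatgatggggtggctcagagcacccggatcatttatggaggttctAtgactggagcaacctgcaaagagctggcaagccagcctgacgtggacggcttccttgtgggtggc
The pairs differed at 5 of 254 bases for Pkm2 and at 4 of 248 for Tpi1. All of these bases are coding in the enzyme's transcript, and the copies ran without a gap across 2 and 3 exon junctions, respectively.

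Of the 10 genes, 5 held an odd region, which is 50.0% (95% interval 23.7 to 76.3), beside 6.46% of all protein-coding genes. The even pool had a region in 2 of the 10, which is 20.0% (5.67 to 51.0), beside 0.996% of all protein-coding genes. Both pools had a region in the same 2 genes, Aldoa and Tpi1, beside 0.697% of all genes. By position, 2 of the 9 odd regions (22.2%, 6.32 to 54.7) were overlapped by an even region, beside 6.96% of all odd regions, and 2 of the 2 even regions were overlapped by an odd region, beside 42.6% of all even regions. Pkm2 and Aldoa held at least 2 odd regions each, which 1.26% of all genes did, and Pkm2 with its 4 regions was among the 0.112% of genes that held 4 or more. The 10 genes are a small set chosen with earlier results of these data known, so these shares describe the set and were not tested.

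**Figure D1:**
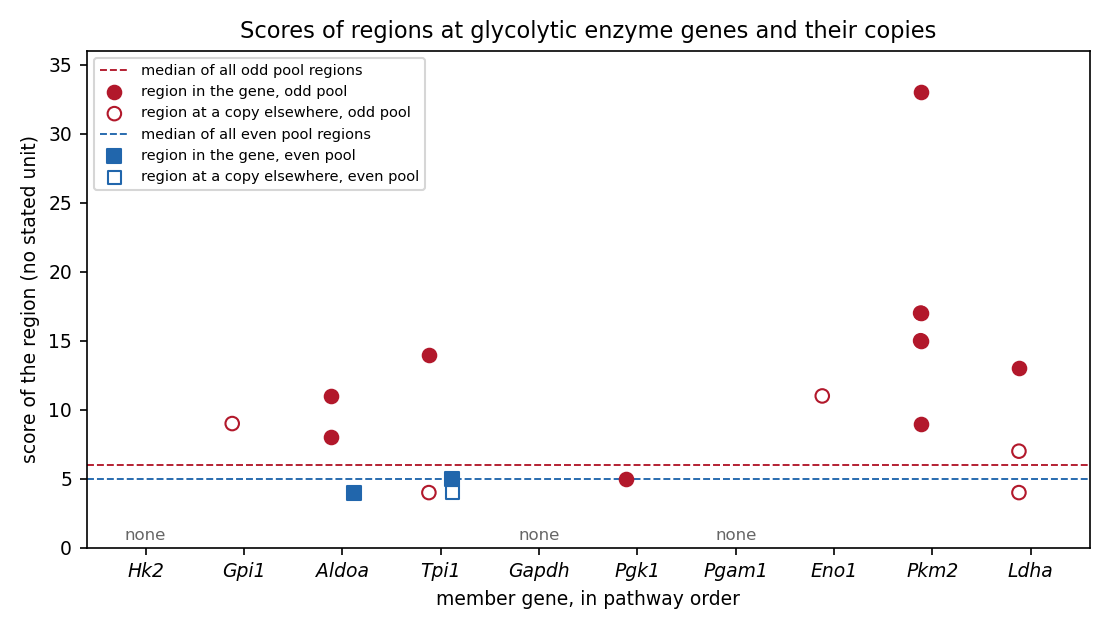
Score of each region (vertical axis, no stated unit) by member gene in pathway order, with filled symbols for regions in the gene and open symbols for regions at copies elsewhere, in the odd (red circles) and even (blue squares) pool. Dashed lines are the medians of all regions, 6 and 5, and 8 of the 9 odd regions in the genes lay above the odd median, up to 33 in Pkm2.

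Scores of the odd regions in these genes were 33, 17, 15 and 9 in Pkm2, 14 in Tpi1, 13 in Ldha, 11 and 8 in Aldoa and 5 in Pgk1, with a median of 13. Of these, 8 of 9 were above the odd median of 6, beside 39.1% of all odd regions. The median of all 1679 odd regions with their midpoint on an exon was also 6. The even regions in Tpi1 and Aldoa scored 5 and 4, and neither was above the even median of 5, beside 35.1% of all even regions. The order of genes by their highest odd score was therefore Pkm2, Tpi1, Ldha, Aldoa and Pgk1, but with 1 library the differences between neighbours in this order have no error.

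Among the 10 genes, those for the first steps of the pathway, Hk2 and Gpi1, had no region. Of all protein-coding genes, 6.46% held an odd region, so a gene without one was common. Hk1, a hexokinase outside the set, held an odd region with a score of 4. Hk2, a hexokinase that phosphorylates glucose as it enters the cell, had no region over a span of 49430 bp and 18 exons, and the nearest odd region was 77.4 kb away. Gpi1, which interconverts glucose 6-phosphate and fructose 6-phosphate, had none over 28168 bp, and the nearest odd region was 817 kb away. An odd region with a score of 9 at chr8:5640058-5640311 matched the Gpi1 transcript at 98.8% identity over 254 bp. That copy region overlapped Gm1840, a gene annotated as protein-coding, with its midpoint on an annotated exon.

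Aldoa, the aldolase that cleaves fructose 1,6-bisphosphate, was covered at 2 of its 10 exons. Exon 4 lay whole in an odd region with a score of 11, which spanned codons 92 to 162 of its longest coding transcript. The last exon held an odd region at chr7:133938732-133938985 with a score of 8 and an even region at chr7:133938807-133939054 with a score of 4. These 2 regions shared 179 bp, which lay on the end of the coding sequence and in the 3′ untranslated region. A score of 4 was the lowest in the even list.

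Tpi1, the triose phosphate isomerase, was the other gene recovered by both pools. The odd region chr6:124760958-124761211, with a score of 14, lay wholly in the 3′ untranslated region of exon 7 of 7, and 203 odd regions (9.61%) scored at least as high. The even region chr6:124761045-124761292 scored 5 and covered 245 bp of the same untranslated region and 3 coding bases. They shared 167 bp. Both pools also had a region with a score of 4 at a copy of Tpi1, but at different copies. The odd one was chr18:20707487-20707740, with 96.1% identity over 233 bp, in no annotated gene. The even one, shown above, was in the lincRNA 9330179D12Rik at 98.4% identity. The 2 copies matched different stretches of the transcript, bases 264 to 496 and bases 629 to 876.

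Gapdh, the glyceraldehyde 3-phosphate dehydrogenase, had no region in either pool, and neither had any of the 142 other loci that matched its transcript. Its nearest odd region was 31.7 kb away. Pgk1, the phosphoglycerate kinase, had 1 odd region on exon 11 of 11. Its score of 5 was reached by 71.0% of odd regions and was the lowest in these genes in the odd pool. Pgam1, a phosphoglycerate mutase with 4 exons, had none, and 7 other loci that matched it had none either.

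Eno1, an enolase, is the only one of these genes on chromosome 4 with PAM, from which it lay 60.9 Mb away, and it held no region. The nearest odd region was 738 kb away. An odd region with a score of 11 at chr18:48206260-48206513 matched the Eno1 transcript at 100% identity over 213 bp and across 2 exon junctions. That region overlapped Gm5506, a gene annotated as protein-coding, with its midpoint outside the annotated exons.

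Pkm2, the pyruvate kinase that makes pyruvate and ATP, had the most regions. They lay on exons 5, 6, 10 and 11 of 11, with scores of 9, 15, 17 and 33, so the score was higher the closer the exon was to the 3′ end. The highest, at chr9:59526683-59526936, was made wholly of 3′ untranslated sequence and ended 243 nt before the 3′ end of the transcript. Only 31 of the 2112 odd regions, or 1.47%, scored 33 or more. The region on exon 6, chr9:59518330-59518583, covered 215 exon bases in codons 208 to 279. The even pool had no region in Pkm2, and its nearest even region was 3600 kb away.

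Pkm2 is spliced to alternative forms that differ by a choice between neighbouring exons of 167 bp. Neither exon held a region in either pool. The exon of the longest transcript, chr9:59522836-59523002, was unique in sequence, with 100% of its 31-mers found once in mm9, and 40.9% were found once in the other, chr9:59523375-59523541. The regions therefore lay in parts that both forms share. The odd pool had 2 more regions at a copy of Pkm2 within the lincRNA 1700030G06Rik on chromosome 5, with scores of 17 and 15. Their stretches of transcript overlapped those of the regions on exons 5 and 10 only in part, so the scores are not of the same stretch. The copy region scoring 17 matched bases 245 to 498, and the exon 5 region, scoring 9, covered bases 466 to 652. These 2 shared only the short stretch from 466 to 498. The copy region scoring 15 matched bases 1372 to 1518, and the exon 10 region, scoring 17, covered bases 1395 to 1576.

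Ldha, the lactate dehydrogenase subunit that turns pyruvate into lactate, had 1 odd region with a score of 13, chr7:54110309-54110562, on exon 8 of 8. It held 162 coding bases, 54 bases of the 3′ untranslated region and 38 intron bases. A pair of copies had odd regions with scores of 7 and 4. The first, chr14:93594388-93594641, lay in an intron of Pcdh9 at 95.3% identity, and the other, chr13:83972395-83972648, lay in no gene at 96.1% identity. Both matched coding sequence upstream of exon 8, from base 556 to 809 and from base 732 to 985.

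**Figure D2:**
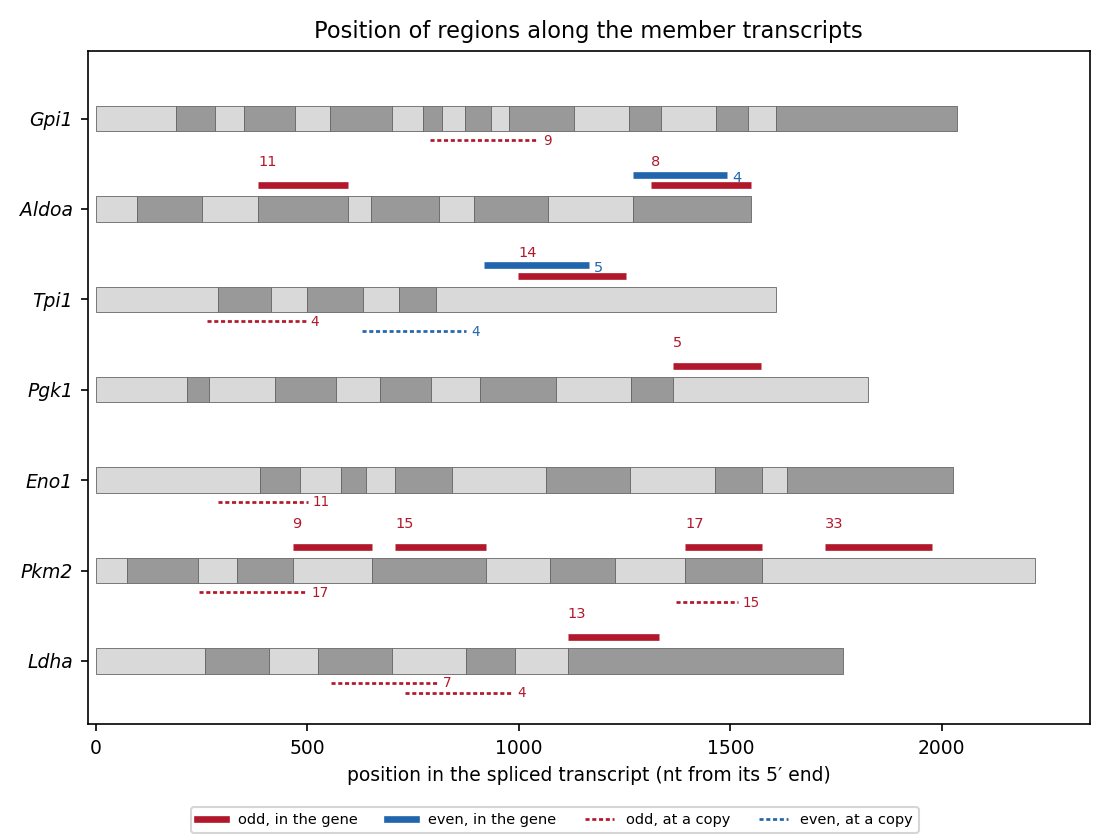
Position of regions (horizontal axis, nt from the 5′ end of the spliced transcript) in the 7 member genes with a region in the gene or at a copy. Grey boxes are exons, solid bars regions in the gene, dashed bars the stretch matched by a region at a copy, and numbers the scores. The solid bars of Aldoa, Tpi1, Pgk1, Pkm2 and Ldha reach the last exon in each gene, and the dashed bars cross exon borders.

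Regions in these genes were also described by position and base content, though the genes were chosen with earlier results of these data known. The midpoint lay on an exon in 9 of 9 odd regions (100%, 70.1 to 100) and in 2 of 2 even regions, beside 79.5% of all odd and 57.4% of all even regions. The interval for the odd regions includes the share of the whole list. The whole lists also count regions outside genes, which cannot lie on an exon, so the shares are not of like sets. No region held a base of the 5′ untranslated region, and the midpoints of the odd regions were 1699 to 22426 bp from the transcription start. Neither feature was compared with the whole list, so neither sets these genes apart. The last exon held 5 of the 9 odd regions (55.6%, 26.7 to 81.1), at 1 in each of the 5 genes, and it makes up 31.6% of their spliced length, which the interval includes. Over all protein-coding genes of 3 or more exons, 70.1% of 1474 odd midpoints on exons were on the last exon. In the genes with such midpoints, the last exon made up 48.0% of the spliced length, a larger part than in the enzyme genes. The shares of 55.6% and 70.1% are therefore not of like sets. Both even regions were on the last exon, beside 69.5% of 167 even midpoints on exons, in genes where it made up 52.0% of the spliced length. GC content of the odd regions was 44.9 to 57.5% with a median of 52.8%, beside 49.6% for the whole list.

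The exons with an odd region were the longest exons of their genes. In Pkm2, the 4 exons with a region were at least 182 bp long, and the longest of the other 7 was 167 bp. In Aldoa, the corresponding lengths were 212 and 200 bp, in Ldha 650 and 258 bp, in Pgk1 461 and 216 bp and in Tpi1 802 and 289 bp. This order held in 5 of 5 genes, beside 76.7% of the 1104 protein-coding genes of 3 or more exons with an odd midpoint on an exon, so it was common in the whole list as well.

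**Figure D3:**
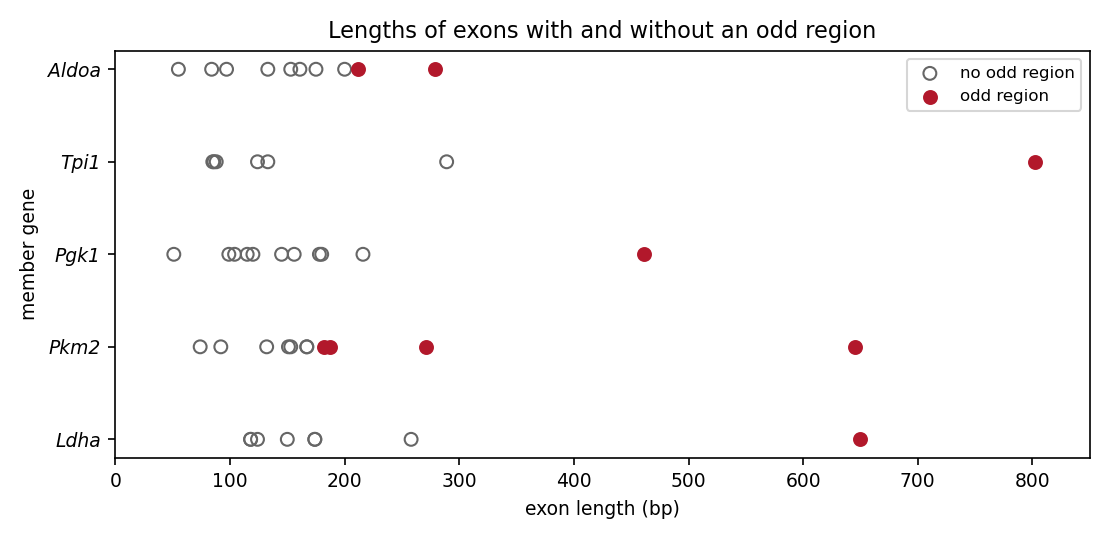
Length of each exon (horizontal axis, bp) of the 5 genes with an odd region, with filled circles for exons that hold the midpoint of an odd region and open circles for the others. In every gene the filled circles lie to the right of the open ones, from 182 bp in Pkm2 to 802 bp in Tpi1.

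Most regions in these genes lay in sequence that recurs in the genome. Uniqueness was measured as the number of times each 31-base stretch (31-mer) of a region occurs in mm9 on either strand. The median 31-mer occurred once in 2 of the 9 odd regions (22.2%, 6.32 to 54.7), both in Aldoa, beside 83.3% of all odd regions, and in 1 of the 2 even regions, beside 80.3% of all even regions. In the Pkm2, Ldha and Tpi1 regions of the odd pool, the median 31-mer occurred 2 times, and in the Pgk1 region 3 times. Every region still held some unique sequence, and the share of 31-mers found once ran from 31.7% in Pgk1 to 79.5% in exon 4 of Aldoa. The region with the highest score, 33, had 42.4% of its 31-mers found once. The authors kept reads that map uniquely, and the part of recurrent sequence in the genes without a region was not tested.

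Gapdh had the most copies, and a 31-mer of its exon 4 is shown for that reason.
Gapdh exon 4, chr6:125112935-125112965 (mm9, minus strand): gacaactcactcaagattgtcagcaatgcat
It occurred 129 times in mm9. In exons 2 to 7 of Gapdh, no 31-mer within an exon was unique, while in exon 1 all 192 were, which gave 15.9% of exonic 31-mers found once over the gene. The share was 6.25% in Pgam1, 7.16% in Pgk1, 24.5% in Eno1, 35.9% in Pkm2, 49.3% in Ldha, 52.2% in Gpi1, 56.7% in Aldoa, 59.1% in Tpi1 and 99.3% in Hk2. In this exonic share, the genes with an odd region ranged from 7.16 to 59.1% with a median of 49.3%. Those without ranged from 6.25 to 99.3% with a median of 24.5%, so the groups overlapped. Over the whole gene spans, introns included, the share of 31-mers found once ran from 73.1% in Pgam1 to 96.0% in Hk2. Pgk1, with 7.16% of its exonic 31-mers found once, had an odd region in which 31.7% of 31-mers were found once. Hk2, with 99.3% of its exonic 31-mers found once, had no region. Whether uniqueness bears on which genes held a region was not tested.

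**Figure D4:**
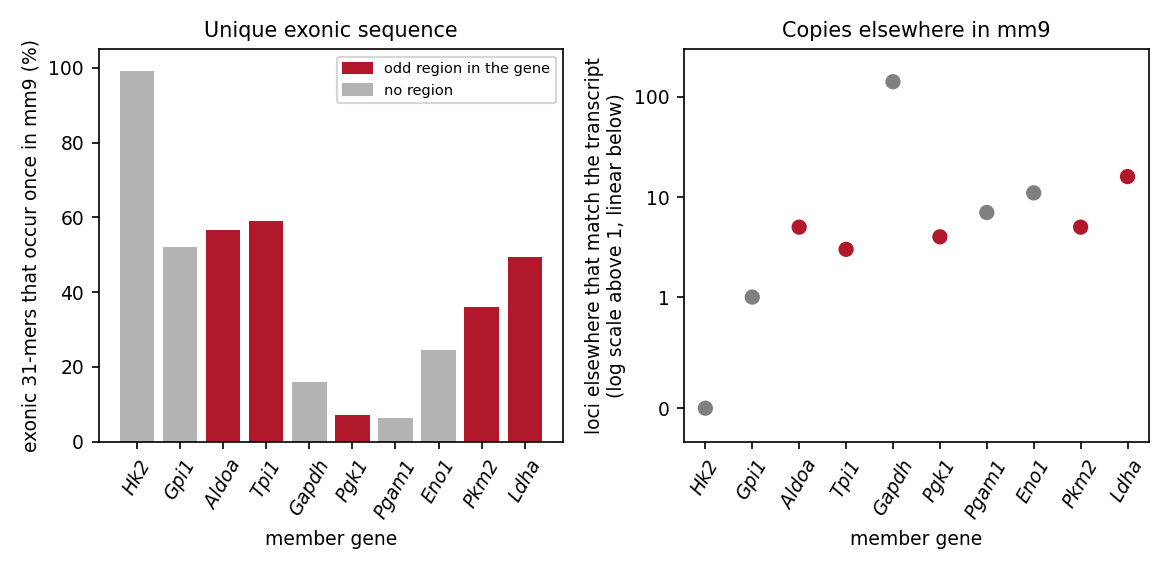
Left, share of exonic 31-mers that occur once in mm9 (vertical axis, percent) for each member gene. Right, number of loci elsewhere in mm9 that match its transcript (vertical axis, logarithmic above 1). Red marks genes with an odd region and grey those without, and Gapdh with 142 loci and 15.9% unique 31-mers and Hk2 with 0 loci and 99.3% both had no region.

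Regions also lay at copies of these genes. Regions outside the genes were searched by megablast for a match of at least 90% identity over at least 50 bp to a transcript of the 10 enzymes, and 7 odd regions and 1 even region were found. They matched Pkm2, Ldha, Tpi1, Gpi1 and Eno1. All 8 matches crossed at least 1 exon junction of the enzyme's transcript, 5 were aligned over the whole region, and none was overlapped by a region of the other pool. Of 194 loci that matched a transcript outside its own gene, 6 held an odd region and 1 held an even region. Gapdh accounted for 142 of these loci, none with a region. Gapdh, Pgam1 and Hk2 had a region neither in the gene nor at a copy. Eno1 and Gpi1 had a region at a copy and not in the gene. The share of all protein-coding genes with a region at a copy was not computed, nor was that of copies of other genes. The counts at copies therefore have no background.

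Other genes of glucose metabolism were described from lists of the pathway. Of 20 further glycolytic enzymes and isozymes, 2 held an odd region, which is 10.0% and close to the 6.46% of all genes. These were Hk1, another hexokinase, with a score of 4 on exon 15 of 18, and Eno3, the muscle enolase, with a score of 7 on exon 8 of 12. Of 16 regulators and transporters of glycolysis, 4 held an odd region. Hif1a, the transcription factor of the hypoxia response, had 2, with scores of 9 and 7. Myc, a transcription factor of growth, and Slc16a1, a lactate transporter, had 1 each with scores of 4 and 5. Pfkfb4, which sets the level of fructose 2,6-bisphosphate, had a region with a score of 10 in an intron, where the median 31-mer occurred 189 times in mm9. None of the 7 genes of gluconeogenesis or the 8 of the pentose phosphate pathway held a region in either pool.

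Pyruvate dehydrogenase and the citrate cycle, which take pyruvate on in the mitochondria, had an odd region in 8 of 22 genes (36.4%). The share over all protein-coding genes was 6.46%. Pdha1, a subunit of pyruvate dehydrogenase, scored 9, and Cs, the citrate synthase, scored 8 and 4 in the odd pool and 4 in the even pool. Dlst, of the oxoglutarate dehydrogenase complex, scored 8. The succinate dehydrogenase genes Sdha, with 5 and 4, Sdhc, with 4, and Sdhd, with 8, and the malate dehydrogenase genes Mdh1, with 7, and Mdh2, with 5 and 4, were the rest. Of these 11 odd regions, 8 were on the last exon. For all genes of 3 or more exons, 70.1% of odd midpoints on exons were on the last exon. In each of the 11 regions the median 31-mer occurred once, as in 83.3% of all odd regions and unlike most regions in the glycolytic enzyme genes. Of the 73 genes of glucose metabolism in these 5 lists, 14 held an odd region and 1 held an even region. Among all protein-coding genes, 6.46% held an odd region and 0.996% an even region.

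Lists outside glucose metabolism held odd regions too, beside 6.46% of all protein-coding genes with an odd region and 0.996% with an even region. Of 14 translation factors, chosen as another set of broadly expressed genes, 10 held an odd region (71.4%) and 3 an even region. These were Eef1a1, Eef1b2, Eef1d, Eef2, Eif3a, Eif3b, Eif4a2, Eif4g1, Eif4g2 and Eif5a in the odd pool, and Eef1a1, Eef2 and Eif3c in the even pool. Markers of satellite cells and myoblasts held an odd region in 4 of 8 genes, namely Des, Itga7, Vcam1 and Sdc4. The other 4 held no region in either pool. Markers of other cells of muscle held an odd region in 3 of 8, namely Ly6a, Pdgfrb and Acta2. The other 5 held no region in either pool. Each marker list had an even region in 2 of 8 genes, Des and Itga7 in the former and Ly6a and Acta2 in the latter. The glycolytic enzyme genes had one in 2 of 10, so an even region was not particular to them. The region lists do not measure expression, so these counts do not check the identity of the cells. The level of RNA from the glycolytic enzyme genes was not analysed here.

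**Figure D5:**
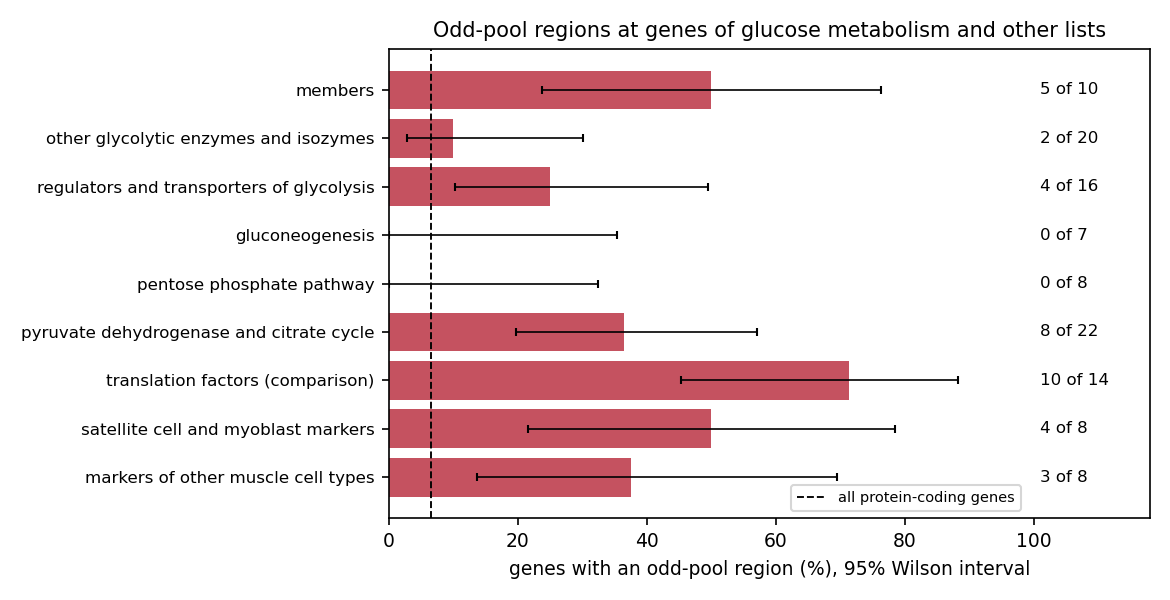
Share of genes with an odd-pool region (horizontal axis, percent) for the member genes and the other lists, with bars for the share, lines for the 95% Wilson interval and counts at the right. The dashed line is the share of all protein-coding genes, 6.46%, and the members, at 50.0%, lie below the translation factors, at 71.4%, and above the other glycolytic enzymes and isozymes, at 10.0%.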

How the data were processed

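ChIRP-seq of PAM was done in ASCs, with 1 library for the odd probe pool and 1 for the even pool. Raw reads were uniquely mapped by the authors to mm9 with Bowtie2 and peaks were called with MACS2, as the paper's methods and the submitters' processing notes state, with versions not given in the sources used here. Per pool, the regions deposited by the authors have a fixed width and a score, a whole number whose unit is not stated. Each list holds more regions than the paper reports as bound by PAM. Whether the regions in the enzyme genes belong to that reported set was not examined. The score was used as deposited to rank regions within a list, and depth is unknown.

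Gene spans and exons came from GENCODE M1, and for each gene the longest protein-coding transcript was used to number exons. Coordinates are 1-based in mm9. The number of copies of each 31-mer was counted on both strands of mm9. Regions were searched against the transcripts by megablast, keeping matches of 90% identity or more that were 50 bp or longer. Searches of the genome used a minimum of 125 bp, and loci within 10000 bp of each other were merged. The counting and overlap steps were tested on simulated data, and the position steps were not. Since there is 1 library per pool, no test was made. The 10 genes and the other lists were chosen with earlier results of these data known. All 10 genes and every listed gene with a region are named, as are genes at regions that match a transcript of the 10, except where the sequence of a region is not reported here. The exon length order was added after its values were seen. Probe sequences came from the study's supplementary table. Alternatives were other overlap rules, a minimum score of 6, 25-mers and other match lengths. Python 3.11.15, NumPy 2.4.6, SciPy 1.17.1, numba 0.67.0, pysam 0.24.0, matplotlib 3.10.9 and BLAST 2.17.0 were used.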

Additional observations from a re-analysis of the deposited data

How the results depend on the processing

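Of 43 alternatives to 13 results, 36 left the value within its interval or within 1.5 times the count, and 7 did not. A minimum score of 6 left 0 even regions at the enzyme genes, 0 genes with an even region, 0 odd regions overlapped by an even region and 0 other genes of glucose metabolism with an even region, since the even regions concerned scored 4 or 5, and it left 8 other genes of glucose metabolism with an odd region in place of 14. Under the same minimum, 4 of the 10 genes kept an odd region, since Pgk1 scored 5. The share of odd regions in unique sequence was 0% both when every 31-mer had to occur once and when a region had to have 1 megablast hit in mm9, since each of the 9 had 3 or more hits. No paired analysis was possible because there is 1 library per pool, and no library could be left out for the same reason. The unknown depth limits what the genes without a region can show.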
